A study of Mus musculus with 40 samples.

Results

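The comparison was made between mouse embryos in which the acetyltransferase domain of 1 of 2 related chromatin regulators carried a single amino acid change. In 4 whole embryos at embryonic day (E) 9.5 both copies of *Kat6a* carried G656E and *Kat6b* was wild type (*Kat6a* E/E). In another 4 both copies of *Kat6b* carried G577E and *Kat6a* was wild type (*Kat6b* E/E). These 8 libraries, chosen by genotype label alone, were among 24 libraries of E9.5 embryos and 40 libraries in the whole series. The other embryo groups used here were wild type (WT) and the null mutants *Kat6a*-/- (labelled cfd/cfd, *Kat6b* wild type) and *Kat6b*-/- (labelled dec/dec, *Kat6a* wild type), with 4 libraries each, which carried no point mutation. The same pair of point mutants was also read in fetal liver LSK cells, a blood stem and progenitor cell fraction, at E14.5. Each library was bulk RNA-sequencing of 1 embryo.

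All alleles were germline and were kept on a C57BL/6 background. Both point mutations were knocked in by Cas9 and backcrossed, so every cell of an embryo carried the mutation. Embryos were chosen for a like external appearance, which limits how far a difference in developmental pace could be seen. The 4 *Kat6a* E/E embryos came from 3 litters and the 4 *Kat6b* E/E embryos from 3 others. No litter was shared, so the litter and the genotype of these 8 embryos cannot be told apart beyond the spread that litters of the same genotype show. *Kat6a* E/E replicate 1 was a littermate of WT replicate 2, while no *Kat6b* E/E embryo had a WT littermate. The differences of the 2 genotypes from WT are therefore not alike in design.

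KAT6A and KAT6B belong to the MYST family of histone acetyltransferases. Each works in a complex with a BRPF scaffold protein, an ING protein and MEAF6, and acetylates histone H3 with acetyl-CoA bound in the MYST domain. Loss of KAT6A is known to alter *Hox* expression and segment identity, and KAT6B is known for its role in the developing brain. The comparison asks whether loss of the acetyltransferase activity of one of the proteins gives another transcriptome than loss of that of the other.

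The mutated codons lie at matching places of the paralogous genes and are printed to show how alike the surroundings are. *Kat6a* lies at chr8:23349545-23433275 and *Kat6b* at chr14:21531502-21722546, both on the plus strand (GRCm39). The mutated glycine of KAT6A is encoded by GGC at chr8:23416459-23416461, in exon 13 of 18. That of KAT6B is encoded by GGA at chr14:21687681-21687683, in exon 12 of 17 of the canonical transcript. The reference sequences are given 5′ to 3′ with the glycine codon in capitals. The deposited counts do not show the mutations themselves.
*Kat6a*, chr8:23416435-23416485: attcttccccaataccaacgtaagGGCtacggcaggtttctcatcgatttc
*Kat6b*, chr14:21687657-21687707: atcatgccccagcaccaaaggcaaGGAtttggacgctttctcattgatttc
Of the 51 bases shown, 35 are identical (68.6%), and both windows lie within a coding exon.

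The libraries compared held 11836227 to 23339359 counts assigned to genes, with 15921 to 16523 protein-coding genes detected in each. The share of the 10 most abundant genes was 3.63% to 3.89%. All 8 expressed Y-linked genes (147 to 179 CPM, depth-scaled counts) and next to no *Xist* (0.116 to 0.507 CPM), as male embryos do. Among the null mutants, *Kat6a*-/- replicate 2 and *Kat6b*-/- replicates 2 and 3 expressed *Xist* at 525, 618 and 739 CPM with Y-linked genes at 0.051 to 0.199 CPM, although the study's embryos were sex-matched. The counts, named genes and list medians of the null pair are therefore given with and without these 3 libraries. Without them 3 *Kat6a*-/- and 2 *Kat6b*-/- embryos remain, so that fit also has fewer embryos. Markers of the heart, neural tube, neural crest, somites, blood, endothelium and gut were present in all 8 embryos, as in whole embryos.

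No gene passed the test between *Kat6a* E/E and *Kat6b* E/E embryos. At a false discovery rate (FDR, Benjamini-Hochberg over 14183 genes tested by limma) under 0.05, 0 genes (0%) were called, and the smallest FDR was 0.168. An unadjusted p under 0.05 was seen for 700 genes (4.94%), of which 382 (2.69%) were higher and 318 (2.24%) lower in *Kat6a* E/E. An even spread of p gives 709 such genes. By edgeR with the same 4 surrogate variables 0 genes were called as well, with 796 at an unadjusted p under 0.05. DESeq2 called 4 genes, *Apc2*, *Bmi1*, *Commd3* and *Srm*. Without the 3 null libraries that express *Xist*, which enter the fit through its spread and surrogate variables, *Bmi1* was called (FDR=0.0149). Leaving out *Kat6a*-/- replicate 2 alone, which is 1 of the 3, was enough for this call (FDR=0.0102), and without any other null library 0 genes were called.

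**Figure D1:**
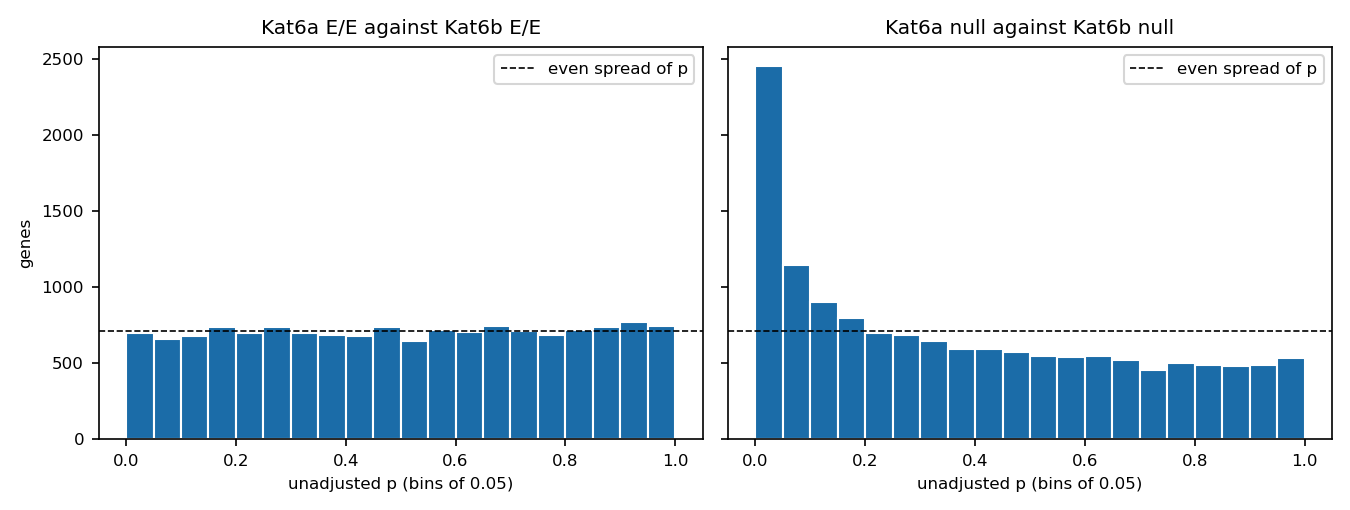
Number of genes (y axis) in each 0.05-wide bin of the unadjusted p (x axis), for the point mutants (left) and the null mutants (right); the dashed line is the height of an even spread, 709.15 genes per bin. The lowest bin holds 700 genes for the point mutants and 2457 for the null mutants.

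The size of the differences was bounded. The 95% interval of the difference lay wholly inside 1.5-fold in either direction for 11616 genes (81.9%) and inside 2-fold for 13231 (93.3%). The median absolute log2 difference was 0.059, less than the median SE of 0.084. Precision followed expression. Of the 3546 genes with the lowest expression 32.1% had an interval inside 1.5-fold, and of the rest, in 3 bins of rising expression, 96.3% to 99.7%. A log2 difference over 1 was estimated for 29 genes, 25 of which were under 2 CPM in both genotypes. For genes of low expression a difference was thus not detectable at this depth unless it was large.

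The libraries did not separate by genotype. For each pair of libraries a distance was computed from its 500 largest log2 differences, by root mean square. It was 1.34 on average between the genotypes, 1.25 among *Kat6a* E/E and 1.46 among *Kat6b* E/E embryos. The mean between genotypes was smaller than the mean within them by 0.015 (excess -0.015, exact permutation test over samples with 35 arrangements, one-sided p=0.543, smallest possible p 0.0286). The nearest of these pairs was replicate 1 of each genotype, at 1.12, nearer than littermates of the same genotype (1.29 and 1.23). *Kat6b* E/E replicate 3 stood far from the other *Kat6b* E/E embryos, at 1.53 to 1.62, and was at 1.16 from *Kat6a* E/E replicate 4. Without it the excess was 0.069 (exact permutation p=0.0857).

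Transcripts of the mutated genes themselves were at like levels. In replicates 1 to 4, *Kat6a* was at 217, 160, 153 and 178 CPM in *Kat6a* E/E and at 202, 158, 187 and 196 CPM in *Kat6b* E/E. The groups overlapped, and the log2 difference was -0.04 (95% interval -0.23 to 0.15). *Kat6b* was at 44.7, 40.1, 37.8 and 39.7 CPM in *Kat6a* E/E and at 46.9, 38.8, 42.2 and 42.4 CPM in *Kat6b* E/E. These also overlapped, with a log2 difference of -0.05 (95% interval -0.18 to 0.09). Neither point mutation lowers the count by construction, so these values do not check the labels. The null alleles lack part of their exons, and a count over the whole gene does not check them either. *Kat6a* was at 166 ± 4.65 CPM in *Kat6a*-/- and 176 ± 8.79 CPM in WT. *Kat6b* was higher in *Kat6b*-/- (54.5 ± 2.75 CPM) than in WT (40.5 ± 2.51 CPM; SD, n = 4 each), and 4 of 4 *Kat6b*-/- libraries were above all WT libraries. Between the null mutants *Kat6b* was called (-0.29, FDR=0.0255), and without the 3 libraries with *Xist* it was at -0.35 (FDR=0.125).

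The other members of the KAT6 complexes and the MYST family were also bounded. All 14 members tested, including the scaffolds *Brpf1*, *Brd1* and *Brpf3*, *Ing4*, *Ing5*, *Meaf6* and the acetyltransferases *Kat5*, *Kat7* and *Kat8*, had intervals inside 1.5-fold, and none had an unadjusted p under 0.05. The smallest p values were those of *Jade1*, a scaffold of KAT7 complexes (log2 difference -0.09, SE 0.055), *Ing4* (0.07, SE 0.060) and *Kat5* (0.06, SE 0.056). Their summed level was 986 to 1063 CPM in *Kat6a* E/E, 1003 to 1069 CPM in *Kat6b* E/E and 1009.8 to 1051 CPM in WT.

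The 10 genes with the smallest p in each direction are given as values that did not pass the test. Their FDR was 0.168 to 0.465. The groups did not overlap for 11 of the 20, a share that the choice by p favours; over all genes the groups did not overlap for 326 (2.3%), with *Kat6a* E/E higher in 193 (1.36%) and lower in 133 (0.938%).

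*Bmi1*, which encodes a subunit of Polycomb repressive complex 1, and *Commd3*, which encodes a COMM domain protein of the endosomal Commander complex, are neighbours on chromosome 2. *Bmi1* was at 111, 118, 112 and 121 CPM in *Kat6a* E/E and at 89.5, 89.4, 101 and 89.3 CPM in *Kat6b* E/E. All 4 *Kat6a* E/E embryos were above all 4 *Kat6b* E/E embryos and above the WT mean of 93.4 ± 2.75 CPM (SD, n = 4). The log2 difference was 0.30 (SE 0.061, FDR=0.178). *Commd3* was at 27.4, 30.5, 30.3 and 26.2 CPM in *Kat6a* E/E and at 23.9, 23.7, 19.7 and 22.8 CPM in *Kat6b* E/E, again with no overlap (log2 difference 0.36, SE 0.072, FDR=0.178). Against the same WT libraries, where 39 genes (0.275%) were called for *Kat6a* E/E and 0 (0%) for *Kat6b* E/E, *Bmi1* was higher in *Kat6a* E/E by 0.30 on the log2 scale (FDR=0.0182). It was at -0.01 for the other genotype (FDR=0.999), and *Commd3* was at 0.30 (FDR=0.0511) and -0.05 (FDR=0.998). Others of the genes chosen by their p were called for *Kat6a* E/E against WT as well. *Srm* (-0.25), *Rpl23a* (-0.88) and *Ube2s* (-0.36) were lower, with FDR=0.0027 each. *Rpl38*, *Nalf2* and *Ube2m* were also lower and *Arap1* was higher (FDR=0.0030 to 0.0441). In 23 alternative analyses the log2 difference between the point mutants was 0.28 to 0.35 for *Bmi1*, called in 4 (and once more without *Kat6a*-/- replicate 2), and 0.32 to 0.39 for *Commd3*, called in 1. Of 170 tiles of 66 bases of the *Bmi1* transcript, 50% matched elsewhere in the genome with at most 2 mismatches, so part of its reads could be assigned elsewhere; none of the 41 tiles of *Commd3* did.

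Both genes lie on the plus strand, *Commd3* at chr2:18677221-18681045 and *Bmi1* at chr2:18681292-18691441 (GRCm39), with 246 bases between them. The 250 bases before *Commd3* and the 246 bases between the genes are printed because these neighbours showed like values, with CpG dinucleotides in capitals.
*Commd3*, chr2:18676971-18677220: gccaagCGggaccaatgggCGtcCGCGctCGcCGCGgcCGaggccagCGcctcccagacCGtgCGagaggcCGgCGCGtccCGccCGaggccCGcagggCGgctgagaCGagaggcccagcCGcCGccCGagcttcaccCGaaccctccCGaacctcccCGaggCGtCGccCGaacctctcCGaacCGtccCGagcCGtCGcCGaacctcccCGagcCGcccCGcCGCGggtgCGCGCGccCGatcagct
*Bmi1*, chr2:18681046-18681291: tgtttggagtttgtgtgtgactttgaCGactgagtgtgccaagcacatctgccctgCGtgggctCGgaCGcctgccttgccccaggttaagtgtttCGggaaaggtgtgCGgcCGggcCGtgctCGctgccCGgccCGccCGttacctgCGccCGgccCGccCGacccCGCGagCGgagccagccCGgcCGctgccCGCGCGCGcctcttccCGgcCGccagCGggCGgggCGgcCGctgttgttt
CG, which reads the same on both strands, occurs 43 times before *Commd3* and 31 times before *Bmi1*. Over 21770 protein-coding genes the median was 6 in windows of the same length, and 0.17% and 2.2% of genes had as many or more. Of the other genes of the neighbourhood, *Dnajc1* and *Skida1* had smaller differences, while *Spag6* and *Pip4k2a* are not given here. The log2 difference was 0.11 (SE 0.067) for *Dnajc1* and -0.05 (SE 0.077) for *Skida1*, which was lower in *Kat6a*-/- than in *Kat6b*-/- (-0.53, FDR=0.0034). Without the 3 null libraries with *Xist* that difference of *Skida1* was -0.58 and was not called (FDR=0.0975).

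*Apc2*, a neuronal relative of the Wnt regulator *Apc*, had the smallest p of all genes. It was at 37.6, 36.5, 23.1 and 25.4 CPM in *Kat6a* E/E and at 21.8, 22.9, 21.4 and 14.8 CPM in *Kat6b* E/E. The groups did not overlap, but *Kat6a* E/E replicates 1 and 2 were far above replicates 3 and 4, and WT was at 22.8 ± 5.41 CPM (SD, n = 4). The log2 difference was 0.51 (SE 0.095, FDR=0.168), and the 23 alternatives gave 0.40 to 0.65 and called it in 4. *Nacad*, which encodes a protein with a nascent polypeptide-associated domain, had the same split, at 7.13, 7.20, 3.11 and 3.53 CPM against 3.24, 2.74, 2.69 and 1.93 CPM (log2 difference 0.81, SE 0.20, FDR=0.465). *Kat6a* E/E replicates 2 and 3, which differ here, were littermates.

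**Figure D2:**
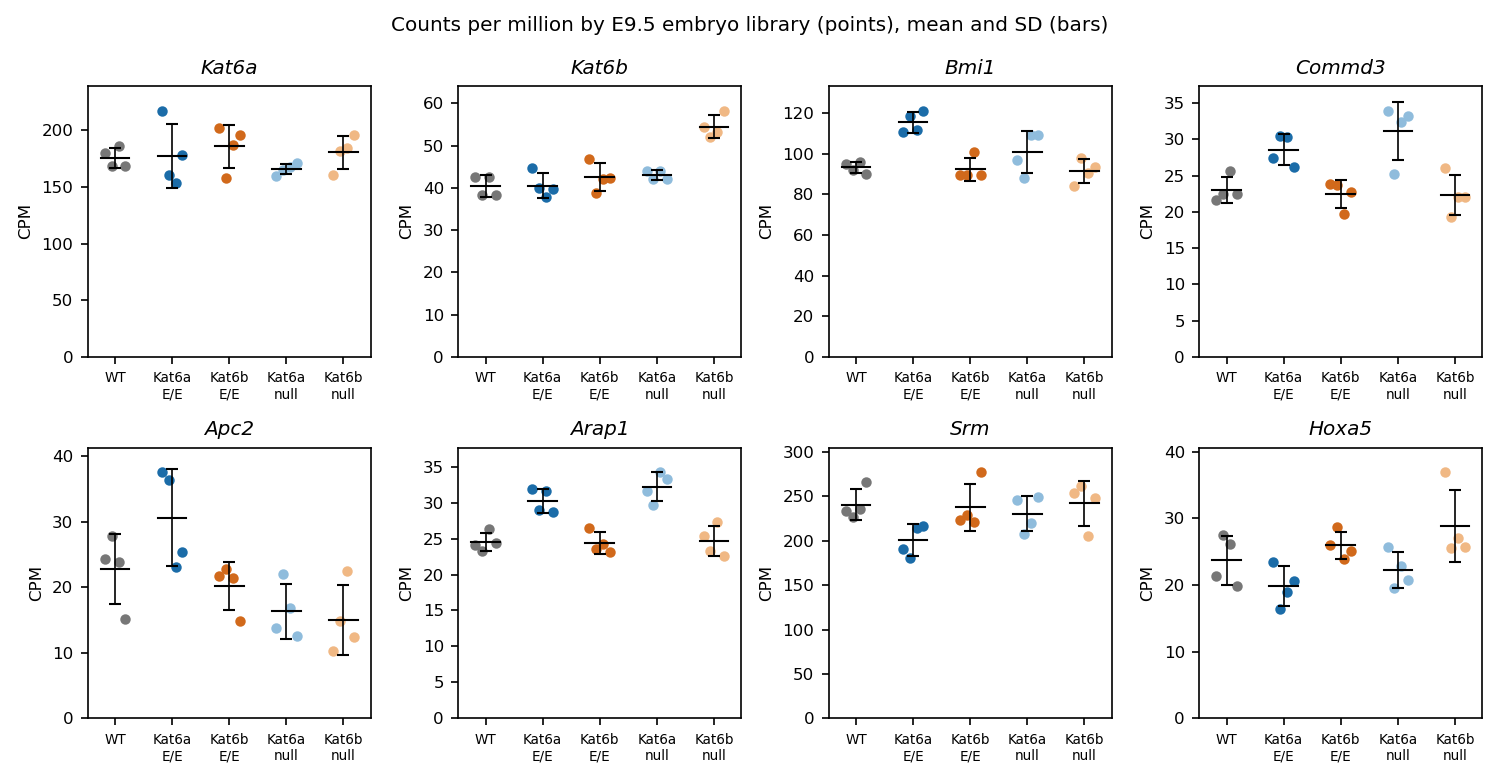
CPM (y axes, from 0) of *Kat6a*, *Kat6b* and 6 of the genes with the smallest p in WT embryos and in both E/E and both null genotypes; points are libraries, bars the mean and SD (n = 4). *Bmi1*, *Commd3*, *Apc2*, *Arap1*, *Srm* and *Hoxa5* do not overlap between the E/E groups, while *Kat6a* and *Kat6b* do.

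Early neuron genes showed the split of *Apc2* and *Nacad* as a group. Of 33 tested, 25 were higher and 8 lower in *Kat6a* E/E, 6 were higher at an unadjusted p under 0.05 (2.69% of all genes were), and 0 were called. The median log2 difference was 0.10, beside 0.003 over all genes. The smallest p values were those of *Dcx*, a microtubule protein of migrating neurons (0.48, SE 0.14, FDR=0.706), and the neurofilament genes *Nefm* (0.38, SE 0.14) and *Nefl* (0.31, SE 0.12). The summed level of the list was 1468, 1491, 1098 and 1124 CPM in *Kat6a* E/E replicates 1 to 4, 1230.5, 1211, 1172 and 1000.3 CPM in *Kat6b* E/E, and 968 to 1398 CPM in WT. The first 2 *Kat6a* E/E embryos were highest and the others were within the range of *Kat6b* E/E. The part of neuron content in the values of *Apc2* and *Nacad* was not tested. In whole embryos, fewer cells of a type and less RNA per cell cannot be told apart. Without any surrogate variables 0 early neuron genes had an unadjusted p under 0.05, but only 305 of all genes did in that fit, beside 700 with them. In the null pair the median of the list was -0.18, and -0.14 without the 3 libraries with *Xist*.

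Among the other genes higher in *Kat6a* E/E, *Arap1*, which encodes a GTPase-activating protein for Arf proteins, was at 31.8, 29.0, 31.6 and 28.7 CPM against 26.5, 23.5, 24.3 and 23.2 CPM. The groups did not overlap (log2 difference 0.29, SE 0.070, FDR=0.465). *Mcoln3*, a cation channel of endosomes and lysosomes (0.50, SE 0.12), *Lman2l*, a lectin of the early secretory pathway (0.25, SE 0.062), and *Ralyl*, an RNA-binding protein at 0.428 to 2.03 CPM (1.16, SE 0.29), did not overlap either. *Rtf2*, which acts at stalled replication forks (0.19, SE 0.048), and *Lrrc49* (0.24, SE 0.061) did overlap. Near-identical copies elsewhere covered 24.8% of the tiles of *Lman2l* and 18.75% of *Rtf2*.

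Lowest in p among genes lower in *Kat6a* E/E was *Srm*, which encodes spermidine synthase of the polyamine pathway. It was at 191, 180.2, 215 and 217 CPM in *Kat6a* E/E and at 224, 229, 221 and 277 CPM in *Kat6b* E/E. The groups did not overlap but nearly met, and WT was at 241 ± 17.7 CPM (SD, n = 4). The log2 difference was -0.18 (SE 0.040, FDR=0.334). Near-identical copies elsewhere covered 22.0% of the tiles of *Srm*. In LSK cells, from other animals, *Srm* was again lower in *Kat6a* E/E (-0.27, FDR=0.0499). That call lay at the threshold, where 2.07% of all genes were called. Without surrogate variables limma called 0 LSK genes and edgeR 4. Of 20 Myc and polyamine genes, 19 were lower, *Mycn* (-0.14, SE 0.058) and *Srm* at an unadjusted p under 0.05, with a median of -0.03.

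*Gsto1*, a glutathione transferase (-0.22, SE 0.050), *Ppp1cc*, a catalytic subunit of protein phosphatase 1 (-0.16, SE 0.039), *Nalf2*, an auxiliary factor of the NALCN channel (-0.48, SE 0.12), and *Ube2m*, the conjugating enzyme for NEDD8 (-0.16, SE 0.041), were also among the 10. *Ppp1cc* and *Nalf2* did not overlap between the groups. For *Ppp1cc* 95.3% of tiles had a near-identical copy elsewhere, so its value is uncertain.

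Ribosomal protein genes made up 3 of these 10 genes. *Rpl23a* was at 11.9, 9.78, 14.4 and 13.7 CPM in *Kat6a* E/E and at 22, 20.5, 13.4 and 22.7 CPM in *Kat6b* E/E. The groups overlapped through *Kat6b* E/E replicate 3, the only *Kat6b* E/E embryo at the level of *Kat6a* E/E (log2 difference -0.62, SE 0.14, FDR=0.455). *Rpl38* (-0.47, SE 0.12) and *Rps26* (-0.19, SE 0.048) showed the same order, and so did *Ube2s*, a conjugating enzyme of the anaphase-promoting complex (-0.23, SE 0.059). Near-identical copies covered 95.7% of the tiles of *Rpl23a*, 79.6% of *Ube2s* and 50% each of *Rpl38* and *Rps26*, and their values are uncertain.

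Over the 84 cytoplasmic ribosomal protein genes tested, 78 were lower in *Kat6a* E/E, 28 at an unadjusted p under 0.05 (2.24% of all genes were), and 0 were called. The median log2 difference was -0.12, and 79 intervals lay inside 1.5-fold. The summed level was 18205.5, 19095, 21472 and 18207 CPM in *Kat6a* E/E and 20735, 20959, 18987 and 21006 CPM in *Kat6b* E/E. In each genotype 1 embryo, replicate 3, was at the level of the other genotype. Across 23 alternatives 64 to 83 were lower, with medians of -0.16 (without *Kat6b* E/E replicate 3) to -0.07 (without *Kat6a* E/E replicate 1). In the null pair the median had the other sign, 0.10, and 0.12 without the 3 libraries with *Xist*. Other lists changed sign too. Of 32 hypoxia and glycolysis genes 28 were lower (median -0.10, 0 called), and their null median was 0.20, and 0.16 without those 3 libraries.

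*Hox* genes, which pattern the body axis, leaned to lower values in *Kat6a* E/E. Of 38 tested, 34 were lower and 4 higher, with a median log2 difference of -0.15. At an unadjusted p under 0.05, 4 were lower (2.24% of all genes were). *Hoxa5* was at 23.5, 16.4, 18.9 and 20.6 CPM in *Kat6a* E/E and at 26, 28.8, 24 and 25.1 CPM in *Kat6b* E/E. These did not overlap, and the log2 difference was -0.35 (SE 0.089, FDR=0.465). *Hoxb7* (-0.36, SE 0.14), *Hoxd9* (-0.38, SE 0.16) and *Hoxb9* (-0.36, SE 0.16) overlapped between the groups. By cluster, 9 of 11 genes of cluster A, 9 of 9 of B, 7 of 9 of C and 9 of 9 of D were lower, with medians of -0.11, -0.17, -0.06 and -0.27. Against the shared WT libraries the median over all 38 was -0.31 for *Kat6a* E/E but -0.12 for the other genotype. Of these genotypes only *Kat6a* E/E has an embryo with a WT littermate.

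The size of the *Hox* difference depended on the setting and on single embryos. The summed *Hox* level was 828, 461, 619 and 675 CPM in *Kat6a* E/E and 731, 896, 691 and 843 CPM in *Kat6b* E/E, with WT at 677 to 959 CPM. *Kat6a* E/E replicate 1 was within the range of *Kat6b* E/E and replicate 2 was lowest of all 8. Without replicate 1 the median was -0.42, and 17 genes had an unadjusted p below 0.05. Over all genes 1177 did in that fit, beside 700 with all embryos. Without replicate 2 the *Hox* median was -0.09. It was also -0.34 without *Kat6b* E/E replicate 3 (12 genes with an unadjusted p below 0.05, and 1130 over all genes). The median was -0.25 without replicate 1 or 4 of that genotype. It was -0.31 with no and -0.39 with 2 surrogate variables, all embryos kept, and -0.26 in the 8 libraries alone. The direction was the same in all 23 alternatives, with 27 to 37 genes lower and 0 called.

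Somite and segmentation genes summed to 346, 259, 333 and 346 CPM in *Kat6a* E/E and to 365, 344, 350.2 and 413 CPM in *Kat6b* E/E, while WT was at 341 to 389 CPM. The groups overlapped, and *Kat6a* E/E replicate 2 was lowest, as for the *Hox* genes. *Kat6b* E/E replicate 2 was highest of its genotype in the *Hox* sum but lowest in this one. Of 23 tested 19 were lower (median -0.21), with 0 called. The lower genes included *Tcf15* (-0.29, SE 0.12), *Uncx* (-0.40, SE 0.16) and *Foxc2* (-0.21, SE 0.096), all 3 at an unadjusted p under 0.05 (2.24% of all genes were). The median was -0.06 with a replicate block and -0.11 (without *Kat6a* E/E replicate 2) to -0.32 (without *Kat6a* E/E replicate 4) without any 1 library. Without surrogate variables 0 somite genes had an unadjusted p under 0.05, but only 305 of all genes did in that fit, beside 700 with them. Embryonic pace within E9.5 was not measured here, and its part was not tested.

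**Figure D3:**
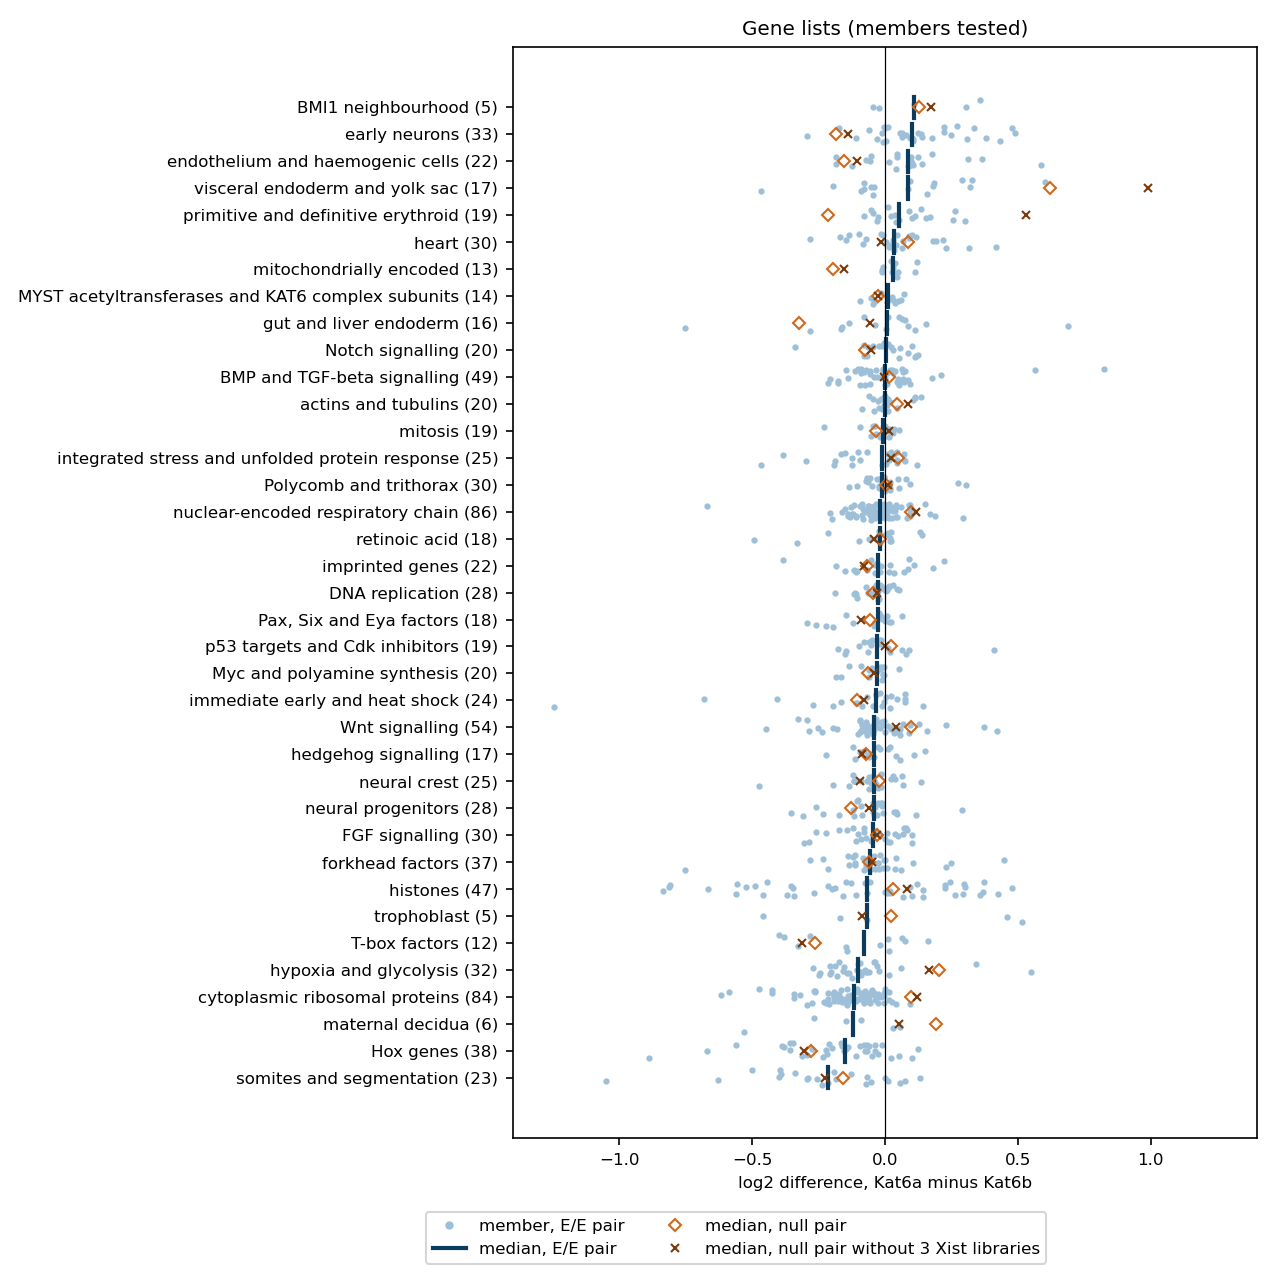
Log2 difference between *Kat6a* and *Kat6b* mutants (x axis) for the members of 37 gene lists (y axis, number tested in brackets); dots are members in the E/E pair, bars their median, diamonds the median in the null pair and crosses that median without the 3 libraries with *Xist*. Ribosomal protein (-0.12), *Hox* (-0.15) and somite genes (-0.21) lie left of 0 in the E/E pair, and the null pair has the other sign for ribosomal protein (0.10, and 0.12 without the 3 libraries) and early neuron genes (-0.18 and -0.14). Other lists change sign too, such as hypoxia and glycolysis (-0.10, against 0.20 and 0.16) and endothelium (0.09, against -0.16 and -0.10).

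Of the 37 lists, none had a called member, and for 36 the summed levels of the groups overlapped. The exception was DNA replication, at 5688, 5583, 5748 and 5676 CPM in *Kat6a* E/E and 5772, 5821, 5787 and 6035 CPM in *Kat6b* E/E. All 4 *Kat6a* E/E embryos were lower than all 4 others, and WT was at 5880.4 to 5933 CPM. Genes whose groups did not overlap made up 2.3% of all genes, so an exception among 37 lists is near that share. Of the 28 DNA replication genes 19 were lower and 9 higher, with a median of -0.03 and all intervals inside 1.5-fold. *Pcna*, the sliding clamp (-0.11, SE 0.037), and *Ccne2*, a cyclin of S phase entry (-0.19, SE 0.066), had an unadjusted p under 0.05.

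For organ and signalling lists the medians were nearer 0. The median was 0.04 for 30 heart genes, which included *Tbx5* (-0.28, SE 0.11) as the member at an unadjusted p under 0.05. It was -0.04 for 28 neural progenitor genes and 25 neural crest genes, 0.09 for 22 endothelial and haemogenic genes and 0.007 for 16 gut and liver genes. For Wnt, hedgehog, FGF, retinoic acid, Notch and BMP and TGF-beta genes the medians were -0.04, -0.04, -0.04, -0.02, 0.003 and -0.001. *Fgf15* (-0.31, SE 0.099), *Notch3* (0.12, SE 0.038), *Fzd8* (-0.24, SE 0.085) and *Wnt5a* (-0.18, SE 0.069) had an unadjusted p under 0.05 and an FDR of 0.745 to 0.914. Erythroid genes varied widely, from 3322 to 10515 CPM in *Kat6b* E/E and from 6927 to 9233 CPM in *Kat6a* E/E, and 1 of their 19 intervals was inside 1.5-fold.

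Summed levels of lists for tissue that dissection should remove overlapped between the groups. Some members, such as *Bmp2* and *Wnt4* of the decidua list, also belong to the signalling lists. These sums therefore do not measure leftover tissue alone. Visceral endoderm and yolk sac genes summed to 182 to 211 CPM in *Kat6a* E/E and 164 to 202 CPM in *Kat6b* E/E. Trophoblast genes summed to 37.6 to 50.6 CPM and 38 to 62.1 CPM, of which *Hand1*, also a heart gene, made up most. Decidua genes summed to 72.5 to 89.7 CPM and 74.3 to 96.4 CPM. *Trf*, which encodes transferrin, was at 18.4 ± 3.83 CPM in *Kat6a* E/E and 13.3 ± 2.25 CPM in *Kat6b* E/E (SD, n = 4), with a log2 difference of 0.32 (SE 0.13, FDR=0.941).

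The same contrast between the null mutants, in other embryos, gave more calls when all libraries were used. Between *Kat6a*-/- and *Kat6b*-/- 232 genes (1.64%) were called, 136 (0.959%) higher and 96 (0.677%) lower in *Kat6a*-/-, and 2457 had an unadjusted p under 0.05 (17.3%). The median SE was 0.083, beside 0.084 for the point mutants, so the precision of both contrasts was alike. Without the 3 libraries that express *Xist* limma called 0 genes, the lowest FDR being 0.0874. An unadjusted p under 0.05 was seen for 1415. That fit has fewer embryos, and its median SE was 0.116. All 232 genes had the same direction in it, with a median difference along that direction of 0.30 beside 0.34 with all libraries, and 197 had an unadjusted p under 0.05. It shares its libraries with the full fit and is no independent check. What the smaller number of embryos and what the removal of these libraries did to the count cannot be told apart. The count also fell to 15 with sample weights and 27 without surrogate variables, and was 477 without *Kat6b*-/- replicate 1, so which genes differ between the null mutants is uncertain.

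Most genes called between the null mutants had small differences between the point mutants. Of the 232, 141 (60.8%) had the same direction in the point mutants, beside 51.3% of all genes. Their median log2 difference along the direction of the null pair was 0.02, beside a median size of 0.34 in the null pair, which is inflated by the choice of called genes. An unadjusted p under 0.05 was reached by 31 (13.4%, beside 4.94% of all genes), 22 in the same and 9 in the opposite direction. The interval of the point mutants lay inside 1.5-fold for 213 of the 232, beside 81.9% of all genes. It left out the null estimate for 214. That count ignores the spread of the null estimate and is favoured by the choice of called genes, so no conclusion is drawn from it. The interaction given below, which counts the spread of both pairs, called 6 genes. In the fit without the 3 libraries with *Xist* 144 of these 232 genes (62.1%) had the same direction in the point mutants, with a median along it of 0.02. An unadjusted p under 0.05 was reached by 36 of them, and by 671 of all genes in that fit. The genes were chosen with all libraries, since that fit called none.

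**Figure D4:**
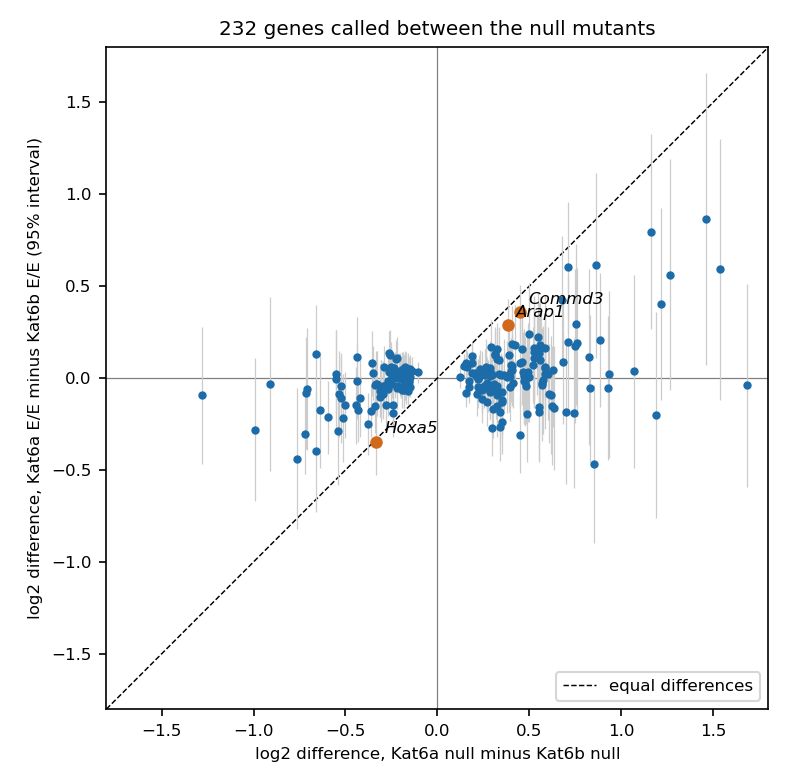
Log2 difference between *Kat6a* E/E and *Kat6b* E/E (y axis, with 95% interval) against that between *Kat6a*-/- and *Kat6b*-/- (x axis) for the 232 genes called in the null pair with all libraries; the dashed line marks equal differences. Most points lie near 0 on the y axis, and *Commd3*, *Arap1* and *Hoxa5* lie near the line.

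Of the 20 genes named above by their p in the point mutants, 10 had the same direction in the null pair, and 3 of these were called there. *Commd3* was higher in *Kat6a*-/- than in *Kat6b*-/- by 0.45 (FDR=0.0034), *Arap1* was higher by 0.38 (FDR=0.0056) and *Hoxa5* was lower (-0.33, FDR=0.0472). *Commd3* and *Arap1* were called in 21 of 22 alternatives of the null pair. The exception was the fit without the 3 libraries with *Xist*, where their differences were 0.44 and 0.49 (FDR=0.0975 for both). *Hoxa5* lost its call in 16 of the 22, among them this fit, where it was at -0.39 (FDR=0.296). *Bmi1* was at 0.11 (SE 0.061, FDR=0.352), and at 0.23 (FDR=0.199) in that fit. In LSK cells, where 270 of 13071 genes (2.07%) were called between the same point mutants and 17.5% had an unadjusted p under 0.05, 18 of the 20 were tested and 13 had the same direction. *Bmi1* was at 0.42 there (FDR=0.169), *Commd3* at 0.21 (FDR=0.337) and *Arap1* at 0.16 (FDR=0.403). The LSK count by limma was 0 without surrogate variables and 3 without *Kat6a* E/E replicate 1.

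The point and null differences were compared directly by their interaction, which called 6 genes (0.0423%), with 1530 at an unadjusted p under 0.05 (10.8%). *Rpl23a*, *Rpl38*, *Rplp2*, *Ube2s* and *Aldoart1*, a retrogene copy of the glycolytic enzyme aldolase, were lower in *Kat6a* than in *Kat6b* among the point mutants and higher among the null mutants. For *Rplp2*, a protein of the ribosomal stalk, the log2 difference was -0.27 (SE 0.072) in the point pair and 0.30 (SE 0.071) in the null pair, a gap of -0.57 (FDR=0.0441). Without the 3 libraries with *Xist* the null difference of *Rplp2* was 0.38 and the gap -0.64 (FDR=0.0190). *U2surp*, a protein of the splicing machinery, was at 0.05 (SE 0.040) in the point pair and -0.24 (SE 0.040) in the null pair, which was -0.24 too without those 3 libraries (gap 0.29, FDR=0.0876). The number of interaction calls was 7 without the 3 libraries with *Xist*, 2 of the 6 among them (*Rplp2* and *Ube2s*), and 0 with DESeq2 size factors. It was 0 without *Kat6a* E/E replicate 2 or 4, *Kat6b* E/E replicate 1 or 4, *Kat6a*-/- replicate 1 or 2 or *Kat6b*-/- replicate 3 or 4. It was 103 without *Kat6b* E/E replicate 3, 47 without *Kat6a* E/E replicate 3 and 26 without *Kat6b*-/- replicate 1. In *Rpl23a*, *Rpl38*, *Rplp2* and *Ube2s* the embryo *Kat6b* E/E replicate 3 was at the level of *Kat6a* E/E, and near-identical copies covered 42.9% of the tiles of *Rplp2* and 24.2% of *Aldoart1*.

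**Figure D5:**
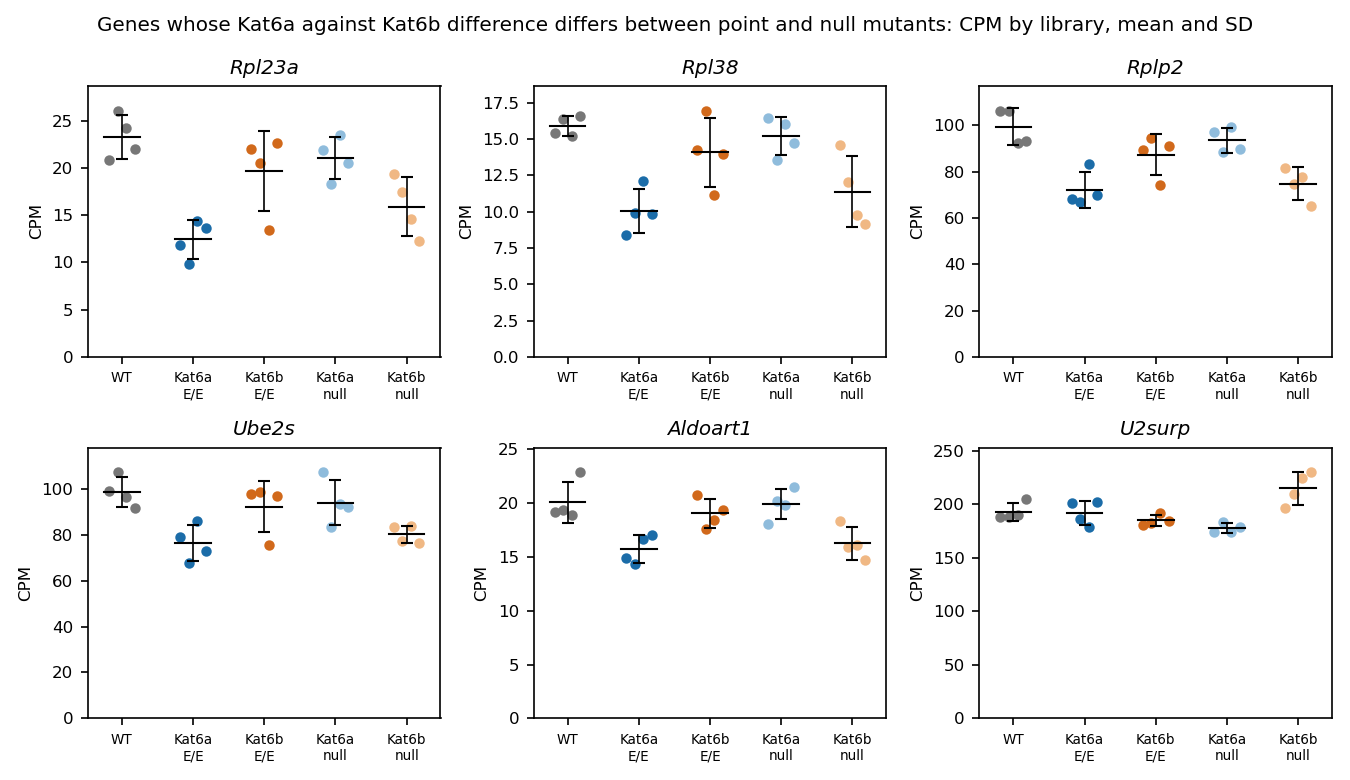
CPM (y axes, from 0) in WT embryos and in both E/E and both null genotypes for the 6 genes called by the interaction; points are libraries, bars the mean and SD (n = 4). In *Rplp2* 3 of 4 *Kat6b* E/E embryos lie above *Kat6a* E/E and replicate 3, at 74.3 CPM, lies among them.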

How the data were processed

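Per the labels and the study's methods, RNA of whole E9.5 embryos was sequenced from TruSeq v2 libraries, which keep no strand. The authors aligned read pairs to mm39 with Rsubread and deposited raw counts per RefSeq gene from featureCounts, 1 file per library. From these, protein-coding genes without Y-linked genes were kept (gene types from RefSeq, 26359 of 26411 identifiers matched), filtered with filterByExpr and scaled by TMM. All 24 embryo libraries entered one model with genotype, 4 surrogate variables (wsva) and litter as a random block (correlation 0.107), fitted by voomLmFit and tested with limma's robust moderated test. LSK libraries were fitted separately. Log2 differences are from this model, and CPM values are counts scaled by TMM library size. Software was limma 3.58.1, edgeR 4.0.16 and DESeq2 1.42.0 under R 4.3.3. Positions are from GENCODE on GRCm39, and copies were sought with minimap2 2.31. No 2 of the 8 libraries agreed within counting noise (chi-square per degree of freedom from 2.85). P-values of the embryo model measure the spread between embryos left after the surrogate variables were taken out, pooled over all 24 embryos. An unadjusted p under 0.05 in the point pair was seen for 700 genes. It was seen for 305 without surrogate variables and for 284 in the 8 libraries alone, also without them. The procedure was tested on simulated counts drawn independently for each library, which cannot check the litter block or the surrogate variables. Named genes were *Kat6a*, *Kat6b*, the 10 smallest p in each direction and the members of a list among its 3 smallest p. *Skida1*, *Hand1* and the interaction calls were named after their values were seen, and the fits without null libraries (each of 8, or the 3 that express *Xist*) in the point pair, and without those 3 in the null pair and interaction, were added after seeing the data. Members, lists and tests were chosen with earlier results of these data known. Proteins, phenotypes and other genotypes were not analysed here.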

Additional observations from a re-analysis of the deposited data

Results flagged for a closer look

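In 6 cases 1 embryo stood apart from the other 3 of its genotype by Dixon's test, which chance gives for about 1 in 20 groups. It was run on 58 sets of 4 embryos, 50 of genes and 8 of library measures, so chance alone gives about 2.9. *Kat6b* E/E replicate 3 did so 4 times: *Bmi1* at 101 CPM (others 89.3 to 89.5), *Gsto1* at 56.4 CPM (64.1 to 65.6), *Ube2s* at 75.7 CPM (97.2 to 98.7) and *Ube2m* at 195 CPM (219 to 222). In each of these it was the *Kat6b* E/E embryo nearest to *Kat6a* E/E. *Srm* was at 277 CPM in *Kat6b* E/E replicate 4 (221 to 229), and *Lrrc49* at 28 CPM in *Kat6a* E/E replicate 4 (34.6 to 35.9).

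For 6 genes the log2 difference between *Kat6a* and *Kat6b* mutants was not the same in point and null mutants (interaction in limma, FDR=0.0441 for each). Point minus null was -1.08 for *Rpl23a*, -0.86 for *Rpl38*, -0.76 for *Aldoart1*, -0.57 for *Rplp2*, -0.43 for *Ube2s* and 0.29 for *U2surp*. Across 30 alternatives the sign was kept for all 6, and the call was lost in 16 to 21 of them for each gene.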

How the results depend on the processing

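Between the point mutants the count of called genes was 2 with 6 surrogate variables, 4 with DESeq2, 2 without a filter on low counts, 1 (*Bmi1*) without the 3 null libraries with *Xist* (added after seeing the data) and 0 to 1 without any 1 library. The count of 1 came without *Kat6a* E/E replicate 3 (*Apc2*) and, among the 8 null libraries left out in turn (added after seeing the data), without *Kat6a*-/- replicate 2 (*Bmi1*). It was 0 in the other settings run. Unadjusted p under 0.05 ranged from 284 genes (only the 8 libraries) to 1177. Intervals inside 1.5-fold numbered 10903 to 11990. The 20 named genes kept their direction in all 23 alternatives, while *Kat6a* ranged from -0.176 to 0.0152 without any 1 library (above 0 without *Kat6a* E/E replicate 3 or *Kat6b* E/E replicate 1) and *Kat6b* from -0.0976 to 0.0132 (above 0 without *Kat6b* E/E replicate 1). The distance excess was -0.079 to 0.069 without any 1 library, above 0 without *Kat6b* E/E replicates 1 (0.024), 2 (0.0084) or 3 (0.069).

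For the null pair the count was 27, 66 and 48 (no or 2 surrogate variables, edgeR without them), 426 (DESeq2), 378 (no filter), 15 (sample weights), 134 (littermates summed), 395 (replicate block) and 0 (without the 3 libraries with *Xist*), and 30 to 477 without any 1 library (30 without *Kat6b*-/- replicate 3, 33 without *Kat6a*-/- replicate 1). For the interaction it was 0 (no or 2 surrogate variables, edgeR without them, DESeq2 size factors, all gene types, sample weights), 44 (6 surrogate variables), 20 (no litter block), 19 (edgeR), 57 (DESeq2), 29 (no filter), 12 (replicate block) and 0 to 103 without any 1 library (E/E and null). For LSK cells it was 0, 582 (no or 2 surrogate variables), 736 (no litter block), 4 and 1213 (edgeR without and with them), 1735 (DESeq2), 151 (all gene types), 85 (sample weights), 2 (replicate block) and 3 to 268 without any 1 library. The causes were not tested.

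Replicate numbers did not pair the libraries: deviations of same-numbered point mutants correlated at 0.15, 0.06, -0.23 and 0.13, and the replicate block left the point count at 0, with 645 genes at an unadjusted p under 0.05. Depth and 4 embryos per genotype limit what can be seen for genes of low expression.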
